A study of Mus musculus with 6 samples.

Results

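Blimp-1, the product of Prdm1, is a zinc finger protein that binds DNA and represses genes largely through other proteins that it recruits. The genes described here encode 10 such partners: the histone methyltransferases Ehmt1, Ehmt2 and Prmt5, the deacetylases Hdac1, Hdac2 and Hdac3, the demethylase Kdm1a with its scaffold Rcor1, and the Groucho corepressors Tle3 and Tle4. They were chosen by name from 22592 genes in the deposited table, with earlier results of these data known. Of the 10 genes, 10 were found there under their current symbols, as 16 of 29868 RefSeq transcripts.

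The study measured RNA in CD4 T cells that carried the MigR1 retrovirus with Blimp-1 cDNA (3 libraries) or the empty MigR1 vector (3 libraries). Both groups came from wild-type C57/BL6 mice, whose age the labels do not give. Naive cells (CD4+ CD44lo CD62L+ CD25neg) spent 36 hours on plates coated with anti-CD3 and anti-CD28 (10 ug/ml), in the presence of neutralising antibodies to IFN-gamma and IL-4. Virus was then added, and GFP+ cells were sorted 2 days later. A separate label gives the stimulation as 3 days. Transduction places the cDNA under control of the virus in cells that keep their own Prdm1 gene. The labels name 3 independent biological replicates.

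Blimp-1 is best known in lymphocytes for ending proliferation and for closing genes of earlier stages, in plasma cells and in effector T cells. The partners act on chromatin: deacetylases remove acetyl groups that mark active genes, the methyltransferases add repressive methyl groups to histone tails, Kdm1a removes methyl groups linked to active promoters, and Groucho proteins bridge a DNA-bound repressor to deacetylases. The comparison therefore asks whether forced Blimp-1 changed the RNA of the machinery through which it is known to work. It does not measure binding, protein or enzyme activity.

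Levels are in FPKM, reads per kilobase of transcript relative to the library's total, summed over the transcripts of a gene. Differences are on the log2(FPKM + 1) scale, Blimp-1 minus empty vector, with intervals of 95% from limma. Estimated depth was 34.0 to 46.2 M reads in Blimp-1 libraries and 17.2 to 38.6 M in empty vector libraries. The lowest value of a partner gene, Tle4 in an empty vector library, rested on about 453 reads, for which counting error alone is 4.7%. Prdm1 was at 9.91, 12.8 and 9.45 FPKM in Blimp-1 replicates 1 to 3, against 0.996, 2.03 and 1.38 in the empty vector replicates, without overlap. The log2 fold change of Prdm1 was 2.26, with a limma adjusted p of 0.0564 without and 0.0049 with the replicate number as a block. The T cell genes Cd3d, Cd3e, Cd3g and Cd4 lay between 217 and 562 FPKM in all 6 libraries, while the NK gene Ncr1 was listed at 0. The summed level of 4 B cell markers was 1.48 to 5.72 FPKM in Blimp-1 libraries and 1.63 to 4.79 FPKM in empty vector libraries, led by Cd79b, at up to 3.57 FPKM, and Cd79a, at up to 1.54 FPKM. That of 5 myeloid markers was 2.31 to 3.41 FPKM with Blimp-1 and 2.18 to 2.75 FPKM with the empty vector, with Cd68 at 1.09 to 2.06 FPKM, Itgam at 0.336 to 1.32 FPKM and Csf1r at most 0.00654 FPKM. For 4 dendritic cell markers it was 1.18 to 1.51 FPKM with Blimp-1 and 0.897 to 1.15 FPKM with the empty vector. Cd8a was at most 0.169 FPKM, and Cd8b1 was at 7.83 to 10.9 FPKM in Blimp-1 libraries and 7.01 to 10.2 FPKM in empty vector libraries. Empty vector replicate 3 stood apart on the first principal component, at 33.7 against -22.7 to 12.6 for the other libraries. It had the haemoglobin gene Hba-a1 at 18.7 FPKM, against 0.318 to 2.98 elsewhere. The other haemoglobin gene read, Hbb-bs, did not set it apart. Hbb-bs was at 0.118, 0.0552 and 0.123 FPKM in empty vector replicates 1 to 3 and at 0 with Blimp-1. The part of depth, of the makeup of empty vector replicate 3 and of these other cell types in the values below was not tested. The fold change of each partner gene is also given without that library, in the fit without the block. Blimp-1 replicate 3 stayed in that fit, so differences between replicate numbers entered those values.

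None of the 10 partner genes was called as higher or lower with Blimp-1 by limma without a replicate block (lowest adjusted p = 0.998) or with it (lowest adjusted p = 0.186, Hdac1). Over all 10854 genes tested the fit without the block called 0% in each direction, and the blocked fit called 0.00921% in each direction. At an unadjusted p below 0.05 the partner genes numbered 0 of 10 without the block and 1 of 10 with it (Hdac1), against 1.12% and 20.5% of all genes. The fold changes lay between -0.20 and 0.12, so that 10 of 10 were smaller than 0.25 in size, as were 85.5% of all genes. Their median was 0.02 beside a median of -0.01 over all genes. The median size of the change, regardless of sign, was 0.07 for the partner genes and 0.11 for all genes. For 0 of the 10 did the values of the vectors separate without overlap, against 2.28% of all genes higher and 2.34% lower. Of the 10, 1 gene, Tle3, was higher in 3 of 3 replicate pairs and 2, Hdac1 and Hdac3, were lower in 3 of 3, against 22.9% and 22.8% of all genes. These shares for 10 genes are near the background. In bulk RNA of this kind, fewer cells that use a gene and less RNA per cell cannot be told apart.

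**Figure D1:**
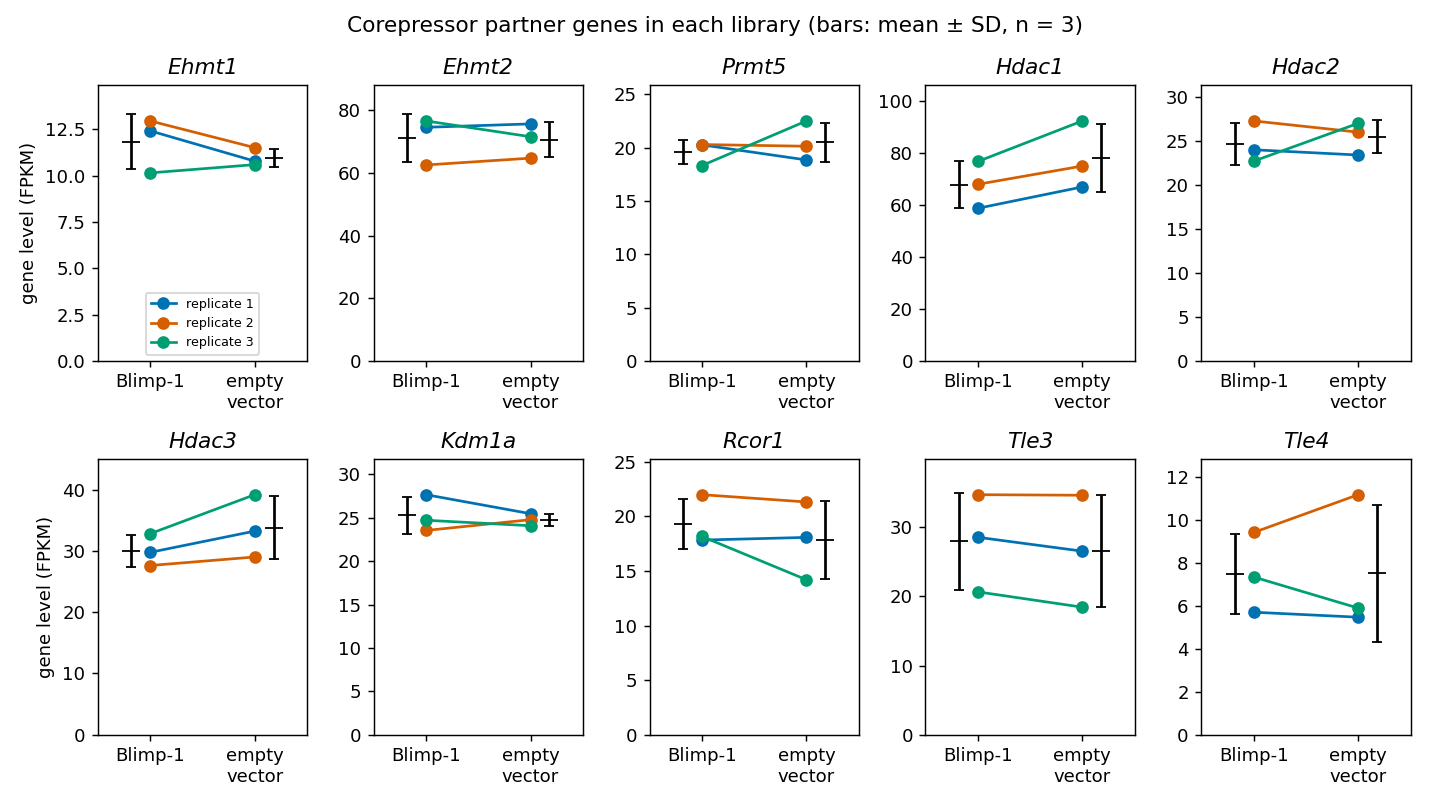
FPKM of the 10 partner genes in each library, Blimp-1 left and empty vector right; lines join libraries of the same replicate number, and black bars give the mean ± SD (n = 3 each). The ranges of the vectors overlap for 10 of 10 genes, and the lines of Hdac1 and Hdac3 run lower in Blimp-1 for 3 of 3 pairs.

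The genes differed more in level than between vectors. Over the 6 libraries Hdac1 and Ehmt2 were highest, with mean levels of 73.0 ± 11.5 and 70.9 ± 5.95 FPKM (SD, n = 6), and their ranges overlapped. A gap followed, since the lowest Ehmt2 value, 62.5 FPKM, lay above the highest Hdac3 value, 39.3 FPKM. Hdac3 (32 ± 4.18 FPKM), Tle3 (27.3 ± 6.84), Hdac2 (25.1 ± 1.95) and Kdm1a (25.0 ± 1.44) formed a middle group in which each neighbour overlapped the next. Prmt5 (20.1 ± 1.46 FPKM) and Rcor1 (18.6 ± 2.81) overlapped each other, and Prmt5 stayed below Kdm1a in all libraries. Ehmt1 (11.4 ± 1.10 FPKM) and Tle4 (7.51 ± 2.33) were lowest and overlapped. By mean level the genes stood between percentile 36.6 (Tle4) and percentile 91.8 (Hdac1) of all tested genes. Their spread over the libraries also differed: the coefficient of variation was 5.76% for Kdm1a and 31.1% for Tle4, with 8 of the 10 genes below the median of 16.1% over all tested genes.

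Ehmt2 encodes G9a, which with its relative GLP, the product of Ehmt1, places mono- and dimethyl marks on lysine of histone H3 at silenced genes. G9a is the partner through which Blimp-1 was linked to silencing of the interferon beta gene in human cells. Ehmt2 was at 74.5, 62.5 and 76.6 FPKM in Blimp-1 replicates 1 to 3, against 75.6, 64.7 and 71.5 in empty vector replicates 1 to 3. The replicate 2 library was the lowest of both vectors, so the libraries followed their replicate number more than their vector. The log2 fold change was 0.01 (SE 0.13), with a 95% interval of -0.30 to 0.32 without the block and -0.15 to 0.17 with it, and it was 0.02 without empty vector replicate 3.

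The table splits Ehmt2 into a longer transcript, NM_145830, and a shorter one, NM_147151. By GENCODE M21 transcripts paired with these accessions, the longer one holds a coding block of 102 bases that the shorter one lacks. The block is the whole of exon 9 of 27, at chr17:34905610-34905711 on the plus strand of GRCm38. It is shown because it is the sequence by which the transcripts can be told apart within the gene body, with the block in capitals and 20 bases of the neighbouring exons in lower case.
Ehmt2 exon 9: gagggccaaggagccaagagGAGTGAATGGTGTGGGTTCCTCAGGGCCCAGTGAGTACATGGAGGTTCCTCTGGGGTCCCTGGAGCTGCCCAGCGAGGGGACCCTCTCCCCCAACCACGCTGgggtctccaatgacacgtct

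The transcript with this exon made up 43.4%, 40.6% and 38.2% of Ehmt2 FPKM in Blimp-1 replicates 1 to 3, against 40.9%, 42.6% and 37.4% in the empty vector replicates. The ranges overlapped in part, with means of 40.7% and 40.3%. In FPKM the transcript with the exon was at 25.4 to 32.4 in Blimp-1 libraries and 26.8 to 31.0 in empty vector libraries. The transcript without it was at 37.1 to 47.3 and 37.1 to 44.7.

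Ehmt1 was at 12.4, 13.0 and 10.2 FPKM in Blimp-1 replicates 1 to 3, against 10.8, 11.5 and 10.6 in the empty vector replicates. It was higher in pairs 1 and 2 and lower in pair 3. Its log2 fold change was 0.10 (SE 0.13), with an interval of -0.21 to 0.41 without the block and -0.09 to 0.29 with it, and it was 0.07 without empty vector replicate 3. Its 4 listed transcripts were split unevenly between libraries. NM_172545 held 62.5% to 88.3% of the gene in Blimp-1 libraries and 70.1% to 99.3% in empty vector libraries. NM_001012518 held 21.3% and 24.2% in the replicate 1 libraries of Blimp-1 and empty vector, and 0.0391% and 0.00047% in the replicate 3 libraries. With reads of 50 bases from 1 end, such a split is an estimate. Ehmt2 exceeded Ehmt1 per length in each library, by 4.82 to 7.54 times in Blimp-1 libraries and 5.61 to 7.01 times in empty vector libraries.

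**Figure D2:**
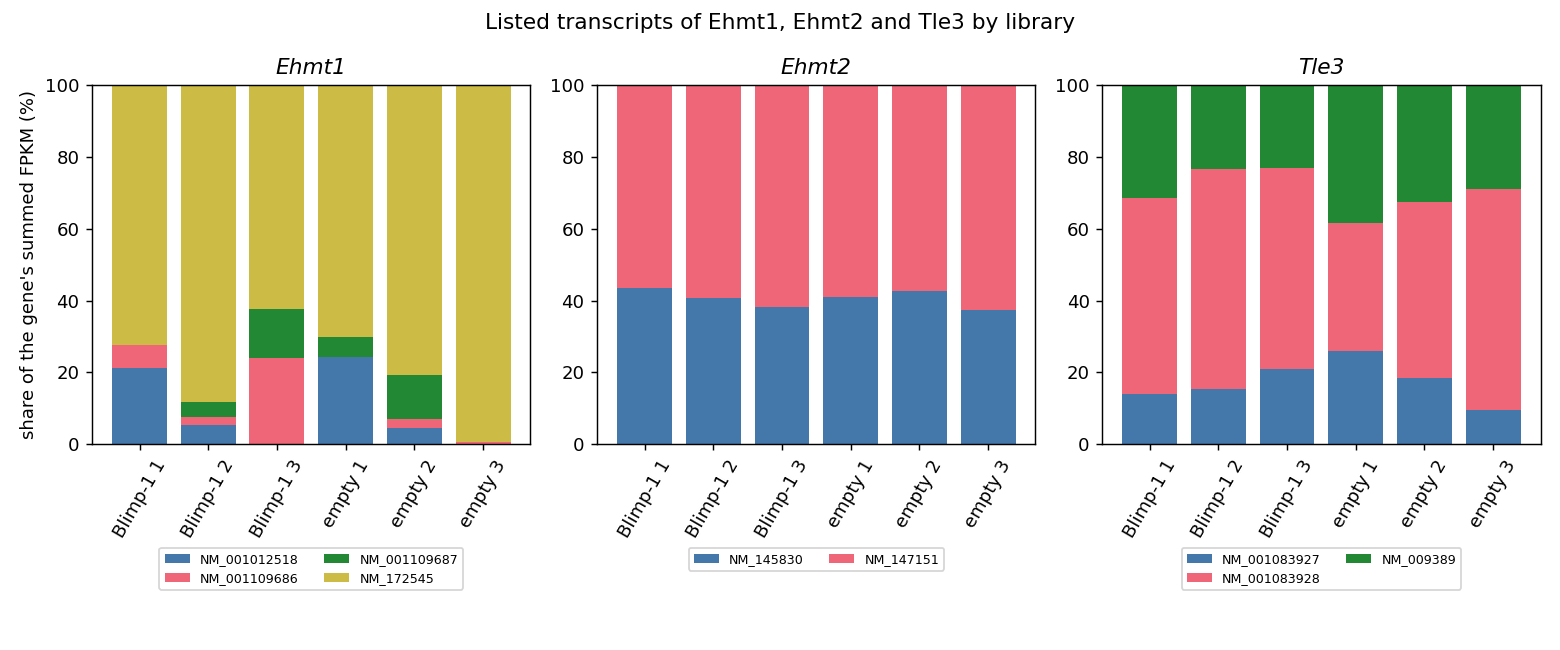
Share of each listed transcript in the summed FPKM of Ehmt1, Ehmt2 and Tle3, in percent, for Blimp-1 libraries (left) and empty vector libraries (right). The Ehmt2 shares lie within 37.4% to 43.4% for the transcript with exon 9, while Ehmt1 and Tle3 shares vary between libraries of the same vector.

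Prmt5 encodes a methyltransferase that places symmetric dimethyl marks on arginine in histones and in splicing proteins. Its complex with Blimp-1 was described in mouse germ cells. Prmt5 was at 20.3, 20.3 and 18.3 FPKM in Blimp-1 replicates 1 to 3, against 18.9, 20.1 and 22.5 in the empty vector replicates. The direction differed between pairs, since only pair 3 was lower with Blimp-1, by a difference of -0.28, and that pair holds empty vector replicate 3, the highest of the 6 values. By limma, the log2 fold change was -0.06 (SE 0.12), with an interval of -0.35 to 0.23, or -0.29 to 0.17 with the block. Without empty vector replicate 3 it was 0.01.

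Among the deacetylases Hdac1 and Hdac3, but not Hdac2, were lower with Blimp-1 in 3 of 3 pairs, and none passed the test. Hdac1 and Hdac2 are close relatives found together in the Sin3, NuRD and CoREST complexes, and Hdac3 is the deacetylase of the NCoR and SMRT complex. Hdac1 was at 58.7, 68.0 and 76.7 FPKM in Blimp-1 replicates 1 to 3, against 67.0, 75.0 and 92.4 in the empty vector replicates. Each Blimp-1 library was lower than the empty vector library of its number, while the ranges overlapped. Within pairs the differences were -0.19, -0.14 and -0.26. The log2 fold change of -0.20 was the lowest of the 10 and lay at percentile 13.3 of all genes (SE 0.17 without the block, adjusted p = 0.998; SE 0.06 with it, limma adjusted p = 0.186). The interval was -0.58 to 0.19 without the block and -0.35 to -0.04 with it, the second not adjusted for the number of genes. Over the 20 alternative settings the adjusted p ran from 0.135 to 0.9999 and the difference from -0.30 to -0.07. RefSeq lists a pseudogene copy of Hdac1, so that reads of near-identical sequence may have been shared in the authors' quantification.

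Hdac3 was at 29.8, 27.7 and 32.9 FPKM in Blimp-1 replicates 1 to 3, against 33.3, 29.1 and 39.3 in the empty vector replicates. As for Hdac1, 3 of 3 pairs were lower with Blimp-1 and the ranges overlapped. The differences within pairs were -0.15, -0.07 and -0.25. Its log2 fold change was -0.16 (SE 0.15), with an interval of -0.50 to 0.19, and of -0.33 to 0.01 with the block (limma adjusted p = 0.267). Without empty vector replicate 3, the highest library for both genes, the fold change was -0.07 for Hdac1 and -0.05 for Hdac3, and without both replicate 3 libraries, with the block, it was -0.16 and -0.11.

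Hdac2 did not share this direction. It was at 24.0, 27.3 and 22.7 FPKM in Blimp-1 replicates 1 to 3, against 23.4, 26.0 and 26.99 in the empty vector replicates. Pairs 1 and 2 were slightly higher with Blimp-1 and pair 3 was lower. The log2 fold change was -0.05 (SE 0.13), with an interval of -0.34 to 0.25, or -0.26 to 0.16 with the block, and it was -0.0044 without empty vector replicate 3. The ratio of Hdac1 to Hdac2 was 2.45, 2.49 and 3.38 in Blimp-1 libraries, against 2.86, 2.89 and 3.42 in empty vector libraries. It was lower with Blimp-1 in 3 of 3 pairs, and the ranges overlapped because of replicate 3. The ratio of Hdac1 to Hdac3 was 1.97, 2.46 and 2.33 in Blimp-1 libraries, against 2.01, 2.58 and 2.35 in empty vector libraries. It too was lower with Blimp-1 in 3 of 3 pairs, with overlapping ranges and means of 2.25 ± 0.253 with Blimp-1 and 2.31 ± 0.287 with the empty vector (SD, n = 3 each). Hdac1 itself was lower in those pairs. The ratios of Ehmt2 to Ehmt1 and of Kdm1a to Rcor1 were higher with Blimp-1 in 1 of 3 pairs, and that of Tle3 to Tle4 in 2. No share over all genes was computed for ratios.

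Genes of DNA synthesis and proliferation are given beside Hdac1 and Hdac3. The list, called S phase genes here, holds 10 genes of S phase or of proliferation in general (Mcm2 to Mcm7, Pcna, Mki67, Rrm1 and Rrm2). Of these 10 genes, 10 had a negative fold change, as did 5652 of all 10854 genes. Lower in 3 of 3 pairs were 3 of the 10, against 22.8% of all genes, and 0 of the 10 were called by limma without or with the block. Their summed level was 466, 437 and 738 FPKM in Blimp-1 replicates 1 to 3, against 583, 439 and 865 in the empty vector replicates. Like Hdac1 and Hdac3, the sum was highest in replicate 3 within each vector, and empty vector replicate 3 was the highest of all libraries. Their median differences were -0.25, 0.03 and -0.21 in pairs 1, 2 and 3. In pair 2 the signs were mixed, with Mki67 at -0.15 and Rrm2 at -0.41 but Mcm2 and Mcm6 at 0.28 each. Their part in the deacetylase values was not tested.

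**Figure D3:**
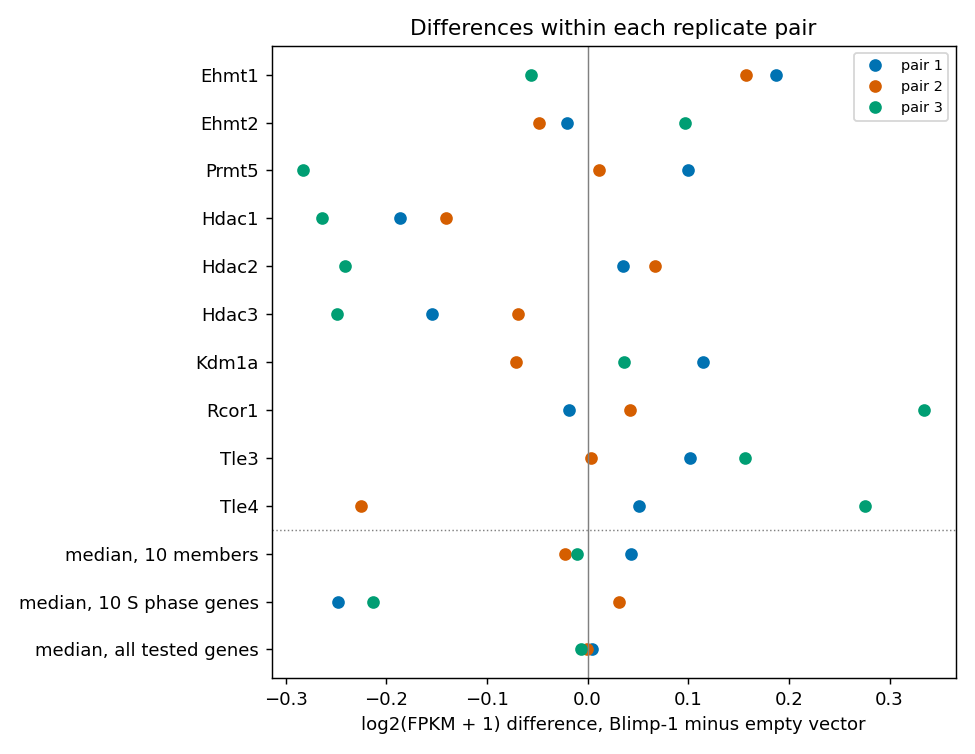
Difference in log2(FPKM + 1), Blimp-1 minus empty vector, for each replicate pair (colours), for the 10 partner genes and for the medians of those 10, of 10 S phase genes and of all tested genes. Hdac1 and Hdac3 lie left of 0 in 3 of 3 pairs and Tle3 right of 0. Regardless of sign, pair 3, which holds empty vector replicate 3, gives the largest difference for each partner gene except Ehmt1 and Kdm1a.

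Kdm1a, also called LSD1, is a flavin-dependent demethylase that removes methyl groups from lysine of histone H3 at promoters, and Rcor1 (CoREST) ties it to Hdac1 and Hdac2. Kdm1a was the steadiest of the genes, at 27.7, 23.5 and 24.7 FPKM in Blimp-1 replicates 1 to 3, against 25.5, 24.8 and 24.1 in the empty vector replicates. The empty vector values lay within the Blimp-1 range. Its log2 fold change was 0.03 (SE 0.12), with an interval of -0.25 to 0.30, or -0.15 to 0.20 with the block, and it was 0.0069 without empty vector replicate 3. Rcor1 was at 17.8, 22.0 and 18.2 FPKM in Blimp-1 replicates 1 to 3, against 18.1, 21.3 and 14.2 in the empty vector replicates. Pairs 1 and 2 were close to equal, and pair 3 differed by 0.33, with empty vector replicate 3 the lowest of the 6 libraries. The log2 fold change of 0.12 (SE 0.17) was the highest of the 10, with an interval of -0.29 to 0.53, or -0.10 to 0.34 with the block. It was -0.03 without empty vector replicate 3 and without the block. Leaving out both replicate 3 libraries, with the block, gave 0.012. Kdm1a exceeded Rcor1 by 1.07 to 1.55 times in Blimp-1 libraries and by 1.16 to 1.70 times in empty vector libraries.

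Tle3 and Tle4 are long Groucho proteins, which bind a DNA-bound repressor and recruit deacetylases. Tle3 was at 28.6, 34.7 and 20.7 FPKM in Blimp-1 replicates 1 to 3, against 26.6, 34.7 and 18.4 in the empty vector replicates. The level followed the replicate number: replicate 2 was highest and replicate 3 lowest for both vectors. Within pairs the differences were 0.10, 0.0034 and 0.16, so that pair 2 was nearly equal. By limma, the log2 fold change was 0.09, with an interval of -0.53 to 0.71 without the block, which ignores the shared level, and of -0.08 to 0.25 with it. Without empty vector replicate 3 and without the block it was -0.14. Leaving out both replicate 3 libraries, with the block, gave 0.053. With only the most abundant transcript, NM_001083928, in place of the sum it was 0.33.

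The 3 listed transcripts of Tle3 differ in short coding blocks besides their ends. They are shown because they are short stretches by which reads can tell the transcripts apart. Capitals mark the block, and 20 bases on each side are in lower case. By GENCODE M21, on the plus strand of GRCm38, the block of 30 bases lies in exon 6 of NM_001083927, at chr9:61394683-61394712. NM_009389 lacks it, and NM_001083928 was not compared for it. Those of 9 and 15 bases lie in exons 12 and 13 of NM_009389, at chr9:61409408-61409416 and chr9:61410121-61410135, and are missing from NM_001083928.
Tle3 exon 6 block: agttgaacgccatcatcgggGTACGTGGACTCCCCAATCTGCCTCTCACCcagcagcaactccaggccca
Tle3 exon 12 block: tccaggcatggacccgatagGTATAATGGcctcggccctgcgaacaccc
Tle3 exon 13 block: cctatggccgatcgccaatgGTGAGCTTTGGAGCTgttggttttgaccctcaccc

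NM_001083928, without the blocks of 9 and 15 bases, was the most abundant Tle3 transcript in 5 of 6 libraries. Its share was 54.4%, 61.2% and 56.0% in Blimp-1 replicates 1 to 3, against 35.4%, 49.0% and 61.5% in the empty vector replicates. It was higher with Blimp-1 in pairs 1 and 2 and lower in pair 3. The share of NM_009389 was 31.5%, 23.5% and 23.0% in Blimp-1 replicates 1 to 3, against 38.5%, 32.6% and 28.9% in the empty vector replicates. It was lower with Blimp-1 in 3 of 3 pairs, and the ranges overlapped between Blimp-1 replicate 1 and empty vector replicate 3. NM_001083927 ranged from 14.03% to 20.99% in Blimp-1 libraries and from 9.57% to 26.1% in empty vector libraries. No test was run on transcript shares, which are estimates from reads of 50 bases.

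Tle4 was at 5.71, 9.42 and 7.35 FPKM in Blimp-1 replicates 1 to 3, against 5.47, 11.2 and 5.90 in the empty vector replicates. As for Tle3, the replicate 2 libraries were highest for both vectors. The differences within pairs were 0.05, -0.23 and 0.28, the widest spread of the 10 genes. Its log2 fold change was 0.03 (SE 0.28), with an interval of -0.61 to 0.68, or -0.23 to 0.30 with the block, and it was -0.09 without empty vector replicate 3. Tle3 exceeded Tle4 by 2.81 to 5.01 times in Blimp-1 libraries and by 3.10 to 4.85 times in empty vector libraries.

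**Figure D4:**
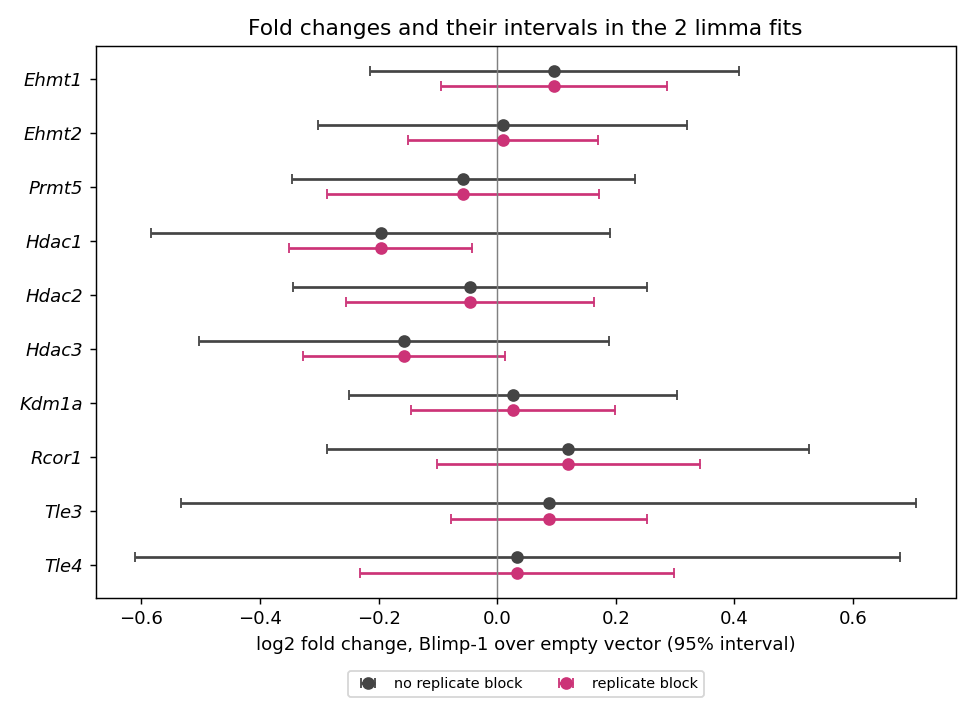
Log2 fold change of the 10 partner genes, Blimp-1 over empty vector, with 95% intervals from limma without (grey) and with (pink) the replicate block. Without the block 10 of 10 intervals include 0, and with it the interval of Hdac1, from -0.35 to -0.04, does not, while its limma p adjusted over all genes was 0.186.

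Blimp-1 binds a motif whose core is GAAAG, and the windows around the start sites of the partner genes were read for these letters. RefSeq promoter windows around each start, on GRCm38.p6, matched 8 of the 10 genes by symbol (10 windows), without Hdac1 and Hdac3. GTGAAAG, which contains GAAAG, was found on either strand in 0 of these 10 windows and in 4.24% of all 32851 windows. GAAAG was found in 1 of the 10, that of Tle3, and in 57.3% of all windows. The 210 bases before the Tle3 gene start, at chr9:61372116-61372325 on the plus strand of GRCm38.p6, are shown from the 1 window with a match. The 2 matches within these bases are in capitals, of which CTTTC is the reverse strand form. The shares are over whole windows, and matches past the gene start were not marked.
Tle3 upstream: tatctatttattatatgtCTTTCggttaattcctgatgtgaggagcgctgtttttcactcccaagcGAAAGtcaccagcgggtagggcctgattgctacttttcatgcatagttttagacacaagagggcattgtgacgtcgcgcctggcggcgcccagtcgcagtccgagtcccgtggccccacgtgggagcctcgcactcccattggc

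Other subunits of the same complexes, and relatives of the enzymes and of the Groucho genes, gave a like picture. Of 63 further genes in 8 lists 60 passed the filter, and 0 were called by limma without the block or with it (lowest adjusted p = 0.998 and 0.141). The values did not overlap for 2 that were higher (3.33%) and 3 that were lower (5%), against 2.28% and 2.34% of all genes. In 3 of 3 pairs 15 were higher (25.0%) and 14 lower (23.3%), against 22.9% and 22.8%. The genes whose values did not overlap were Sin3a and Chd4, higher, and Suds3, Mbd2 and Clns1a, lower. Mbd2, a methyl-DNA binding subunit of NuRD, was at 81.4, 78.4 and 80.9 FPKM in Blimp-1 replicates 1 to 3, against 95.8, 89.1 and 101 in the empty vector replicates (log2 fold change -0.24, limma adjusted p = 0.157 with the block).

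Among deacetylase complexes, the NCoR and SMRT genes had the highest list median, 0.21 over 5 genes, and list medians of 0.28, -0.02 and 0.34 in pairs 1, 2 and 3. Ncor1, the scaffold that activates Hdac3, was both the most abundant and the most different, at 71.7, 57.8 and 50.6 FPKM in Blimp-1 replicates 1 to 3, against 58.8, 51.1 and 39.7 in the empty vector replicates. It was higher in 3 of 3 pairs with overlapping ranges (log2 fold change 0.27, SE 0.19; limma adjusted p = 0.155 with the block). This is the opposite sign to its partner Hdac3, and neither passed the test. The 9 NuRD genes had a median of -0.01. Chd4, their remodelling ATPase, averaged 97.3 ± 6.85 FPKM with Blimp-1 and 84.6 ± 6.70 FPKM with the empty vector (SD, n = 3 each; log2 fold change 0.20), and Gatad2b had the largest difference, 0.35. The 8 Sin3 genes had a median of -0.07, with Sin3b the most abundant, at 71.5 ± 1.01 FPKM with Blimp-1 and 77.1 ± 4.56 FPKM with the empty vector. Sap18 had the largest difference of that list, -0.30, and RefSeq also lists a gene Sap18b, with which it may share reads. The 7 CoREST genes had a median of 0.08, from -0.21 for Rcor2 to 0.19 for Rcor3.

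Of the other deacetylase genes 7 of 8 were tested, with a median of 0.11. Hdac7, a class II deacetylase, was the most abundant, at 209, 142 and 188 FPKM in Blimp-1 replicates 1 to 3, against 193, 135 and 168 in the empty vector replicates. It exceeded Hdac1 in each library and was higher with Blimp-1 in 3 of 3 pairs by a log2 fold change of 0.11. Hdac11 had the largest difference, 0.36, at 1.49 to 2.70 FPKM with Blimp-1 and 0.844 to 1.74 FPKM with the empty vector. Hdac9 lay between 0.189 and 1.41 FPKM and did not pass the filter.

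The 10 further genes of lysine methylation and its readers had a median of -0.01 and differences from -0.10 (Cbx1) to 0.09 (Cdyl). Cbx3, which encodes a heterochromatin protein and was the most abundant of them, was at 119 to 150 FPKM with Blimp-1 and at 118 to 149 FPKM with the empty vector. Among arginine methyltransferases and Prmt5 partners 9 of 10 tested genes had a negative difference, as did 5652 of all 10854 genes, with a median of -0.07. The list medians were -0.02, 0.04 and -0.26 in pairs 1, 2 and 3, and pair 3 holds empty vector replicate 3. Prmt1, the main asymmetric arginine methyltransferase, had the largest difference, -0.34. Its values were 30.2, 33.0 and 34.6 FPKM in Blimp-1 libraries, against 34.6, 31.8 and 64.0 in empty vector libraries, so that 1 library, empty vector replicate 3, stood far above the other 5. Wdr77, the obligate partner of Prmt5, had -0.09. Clns1a, an adaptor of Prmt5, averaged 11.4 ± 0.167 FPKM with Blimp-1 and 12.7 ± 1.12 FPKM with the empty vector (SD, n = 3 each), without overlap.

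The other Groucho genes included the largest difference of all 60. Tle2 was at 4.21, 4.45 and 2.54 FPKM in Blimp-1 replicates 1 to 3, against 2.80, 2.68 and 1.27 in the empty vector replicates. Each pair was higher with Blimp-1, by 0.46, 0.57 and 0.64, and the ranges overlapped through the low replicate 3 libraries. The log2 fold change was 0.55 (SE 0.26), and it was not called without the block (limma adjusted p = 0.998) or with it (0.141). Tle5, a short family member that lacks the repeat domain used to bind many repressors, was the most abundant, at 320, 284 and 347 FPKM in Blimp-1 replicates 1 to 3, against 355, 309 and 389 in the empty vector replicates. It was lower with Blimp-1 in 3 of 3 pairs, by a log2 fold change of -0.14, with overlapping ranges. Tle1 and Tle6 were at most 1.53 and 2.36 FPKM.

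**Figure D5:**
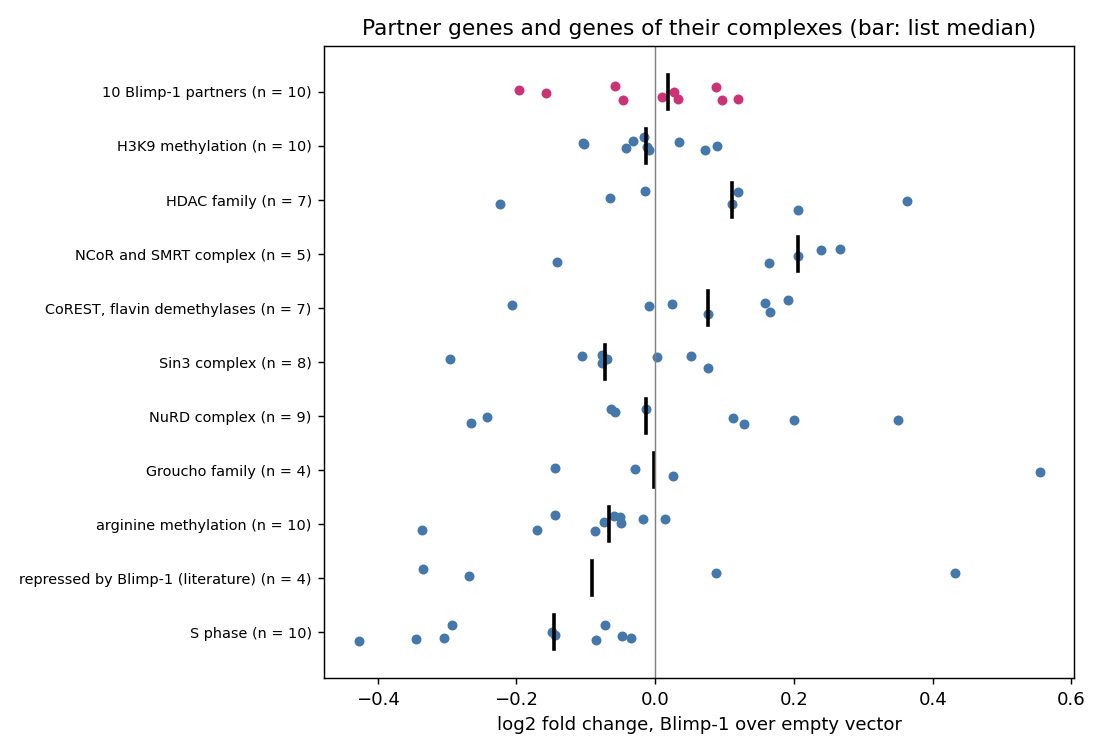
Log2 fold change, Blimp-1 over empty vector, of the 10 partner genes (pink) and of the tested genes of 10 comparison lists (blue), with the list medians as black bars. The partner genes lie between -0.20 and 0.12, and the largest difference among the 8 lists of complex and enzyme family genes is Tle2, at 0.55.

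Genes known from the literature to be repressed by Blimp-1 were read beside its partners. Of 9 listed, Ciita, Pax5, Spib, Il2 and Ifnb1 were at most 0.347 FPKM and were not tested. Of the 4 tested, 0 were called without the block or with it. Id3 was at 41.1, 43.9 and 38.1 FPKM in Blimp-1 replicates 1 to 3, against 52.9, 49.5 and 53.3 in the empty vector replicates, without overlap (log2 fold change -0.33, limma adjusted p = 0.152 with the block). Bcl6 had the largest difference, 0.43, with 0.31, -0.06 and 1.05 in pairs 1, 2 and 3. Tcf7, the most abundant, had 0.09, with -0.12, -0.35 and 0.73 in those pairs. For both genes empty vector replicate 3, which is in pair 3, was the lowest library, at 3.38 FPKM for Bcl6 and 277 FPKM for Tcf7. Over these lists, the complex lists and the S phase genes, the blocked fit without both replicate 3 libraries called 11 of 74 tested genes, beside 11.3% of all genes. Hdac11, Ncor1, Rcor3, Gatad2b, Tle2 and Prmt3 were higher there and Sap18, Id3, Tcf7, Pcna and Rrm2 lower. None of the 10 partner genes was among them. That fit had 1 residual degree of freedom. In the pair left out, Prmt3 and Tcf7 had the opposite sign, at -0.66 and 0.73, and the other called genes of these lists had the same sign.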

How the data were processed

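RNA was sequenced from 6 samples, 3 per vector. The authors deposited FPKM per RefSeq transcript. Per the submitters' processing notes, the tools were Partek 6.6, Cufflinks 2.2 and CASAVA 1.8.2 and the build was mm9; what each did is not stated there. For the aligner, annotation release, strand setting and filters, the sources used here name nothing. FPKM is relative to each library's total. Per the labels' protocols, about 0.5 M sorted cells and 2 ug of total RNA were used, read for 50 cycles.

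Transcripts were named by a RefSeq gene table (29310 by accession, 372 by symbol, 84 by an older symbol, 84 kept the deposited symbol, 18 had none) and summed per gene. That table and the sequences are of GRCm38, not the files' build, so coordinates belong to the sequences only. A gene entered the test if 3 or more libraries reached 1 FPKM. Values were transformed as log2(FPKM + 1) and fitted in limma 3.58.1 (R 4.3.3) with vector as sole factor and empirical Bayes moderation along the trend of variance with level. Two-sided p-values were adjusted by Benjamini-Hochberg over all tested genes, with 0.05 as the threshold. The code was tested on simulated data.

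Depth was estimated from the commonest low value of FPKM times length among genes with 1 transcript, taken as that of 1 read, with lengths from GENCODE M21. As a check of pairing, each library's deviation from its vector's mean was correlated across genes with that of the library of the same number, giving 0.798, 0.809 and 0.703. On this ground libraries of 1 number were treated as pairs, and a fit with the number as a block stands beside the first, though no label gives the meaning of a number.

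Named genes were the 10 partners, Prdm1, the largest difference and the most abundant gene of each list, and others described after their values were seen, such as the genes whose values did not overlap. Some genes that this rule or the marker lists take in are not reported here. The members and lists were chosen with earlier results of these data known. The 20 alternatives changed the pseudocount, filter, gene value, scaling, variance model, block or libraries used.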

Additional observations from a re-analysis of the deposited data

How the results depend on the processing

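The count of partner genes called was 0 under each of the 20 alternatives, and their lowest adjusted p was 0.135 (Hdac1, with the replicate block and without both replicate 3 libraries). Apart from that setting, the alternatives called at most 0.258% of all tested genes. Such settings call few genes of any kind, so a count of 0 there says little about the partner genes or the lists. Of the 74 tested genes of the comparison lists, 0 were called in the fit without the block and in 19 alternatives, the replicate block included, and 11 (6 higher and 5 lower) with the replicate block and without both replicate 3 libraries, where 11.3% of all genes were called on 1 residual degree of freedom. Hdac1 and Hdac3 kept their sign in 20 of 20 alternatives. With only the highest transcript per gene, Ehmt1 had -0.051, Ehmt2 -0.00045 and Tle3 0.33, the largest value of a partner gene in any setting. With the replicate block, leaving out both replicate 3 libraries gave -0.035 for Ehmt2, 0.055 for Prmt5, 0.051 for Hdac2 and -0.087 for Tle4, and leaving out both replicate 1 libraries gave -0.018 for Kdm1a. Leaving out 1 library at a time, the log2 fold change ran from 0.033 to 0.195 for Ehmt1, -0.052 to 0.099 for Ehmt2, -0.113 to 0.0088 for Prmt5, -0.30 to -0.071 for Hdac1, -0.118 to 0.0088 for Hdac2, -0.259 to -0.049 for Hdac3, -0.037 to 0.075 for Kdm1a, -0.028 to 0.25 for Rcor1, -0.143 to 0.295 for Tle3 and -0.134 to 0.323 for Tle4. The sign of Ehmt2, Prmt5, Hdac2, Kdm1a, Rcor1, Tle3 and Tle4 thus depended on which library was left out. These fits had no block, and the other library of the same number stayed in, so differences between replicate numbers entered the values. With the block and both libraries of 1 number left out, Rcor1 ran from 0.012 to 0.189 and Tle3 from 0.053 to 0.129. Ehmt2, Prmt5, Hdac2, Kdm1a and Tle4 changed sign there too, and the cause was not tested. The p-values set each difference against the spread between libraries of a vector, moderated over all genes. With the block, that spread is of the differences within pairs. There were 3 libraries per vector before any was left out.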
